A study of Mus musculus with 32 samples.

Results

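Endosomal sorting and adaptor complex genes were taken from the deposited 3′UTR count table by their symbols: the Vps, Snx and Chmp genes followed by a number, the subunits of the adaptor complexes AP-1 to AP-5, the clathrin chains and the dynamins. The rule found 106 of the 44081 genes in the table, and measured values played no part in it. Of the 106 members, 97 had at least 1 read in at least 16 libraries and entered the comparison, in which 10880 genes were tested. The other 9 (Ap1g2, Ap1m2, Ap1s3, Chmp4c, Snx20, Snx31, Snx33, Snx9 and Vps54) had fewer and were not tested. The libraries came from 16 single hippocampal neurons of C57BL/6 mice at embryonic day 18, kept in culture for 15 days without a further treatment in the labels. The dendrites of each neuron were cut off with a micropipette, and soma and dendrites were aspirated into separate tubes. This gave 16 dendrite and 16 soma libraries paired by neuron. Neurons 1 to 4 had 3 rounds of aRNA amplification (linear amplification of poly-adenylated RNA by in vitro transcription) and the other 12 had 2 rounds. The labels do not say which neurons shared an animal or a culture, so p-values describe the spread between these neurons.

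These genes encode the machinery that takes proteins from the cell surface into vesicles and decides where they go next. At the plasma membrane AP-2 binds cargo and recruits clathrin, and a dynamin cuts the coated vesicle free. In endosomes, retromer and the sorting nexins (SNX) return cargo to the surface or the Golgi, the ESCRT complexes sort cargo for degradation into internal vesicles, and tethering complexes (CORVET, HOPS, GARP and EARP) bring membranes together before fusion. In neurons the same pathways move receptors into and out of the postsynaptic membrane. The question of the design was whether transcripts lie in dendrites or in the soma of the same cell.

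Reads counted on 3′UTRs numbered 646521 to 6954420 per dendrite library (median 1605714) and 925525 to 21169974 per soma library (median 6165691). Levels are given below in CPM, the counts of a gene per 1000000 counts of its library, with each library's total scaled by TMM (a factor that limits differences in composition). They are shares of a library and do not give the amount of RNA in a compartment. The paper reports ERCC spike-in RNA in each tube, which was not used here, so the amount collected was not measured. What part a smaller amount of collected RNA had in the lower shares was not tested. Neuron markers were read in all 32 libraries, and the summed level of the 7 markers had a median of 4132 in dendrites and 4746 in somas. The 3 markers of inhibitory neurons were also read in every library, with sums between 1737 and 11316 in dendrites and between 1126 and 19881 in somas. Marker sums of other cell types had medians in dendrites and somas of 33.1 and 13.1 for astrocytes, 5.16 and 0.199 for microglia, 14.8 and 6.09 for oligodendrocytes, and 1.64 and 0.193 for endothelial cells. Gfap and Aldh1l1 of the 5 astrocyte markers, 4 of the 5 microglial markers (all but Itgam), 3 of the 5 oligodendrocyte markers (Mog, Mag and Cnp), and Cldn5 and Pecam1 of the 3 endothelial markers had a median of 0 in dendrites. The part of other cells in the results was not tested.

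Fewer of the sorting genes were detected in dendrites than in somas, as for genes in general. In a dendrite library 7 to 70 of the 106 members had at least 10 reads (median 55.5), and in a soma library 60 to 99 did (median 84). Over all genes of the table the medians were 6052.5 in dendrites and 9378.5 in somas. The soma had more in 15 of 16 neurons, by 33.9 ± 19.8 members (SD, n = 16), and neuron 5 was the exception with 69 members in its dendrites and 65 in its soma. With both libraries of a neuron sampled down to the same number of reads, the difference was 27.7 ± 19.3 (SD, n = 16). Together the members took 0.263% to 0.903% of the reads in dendrites (median 0.642%) and 0.765% to 1.32% in somas (median 1.07%), and the share was larger in the soma of 15 neurons, neuron 14 being the exception.

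Dendrite libraries 12, 15 and 16 stood apart. They had 24, 7 and 20 members with at least 10 reads, while the other 13 had 44 or more. Over all genes they held 3794, 1570 and 2485 genes at that level, against a median of 6052.5 over the 16 dendrites. Mitochondrially encoded genes took 25.8%, 35.8% and 32.4% of their reads, the largest shares of all libraries, against medians of 13.5% in dendrites and 1.05% in somas. Without these neurons the difference in members was 27.8 ± 14.1 (SD, n = 13). What part these libraries' quality had in the results was not tested, and the main counts below are also given without them.

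**Figure D1:**
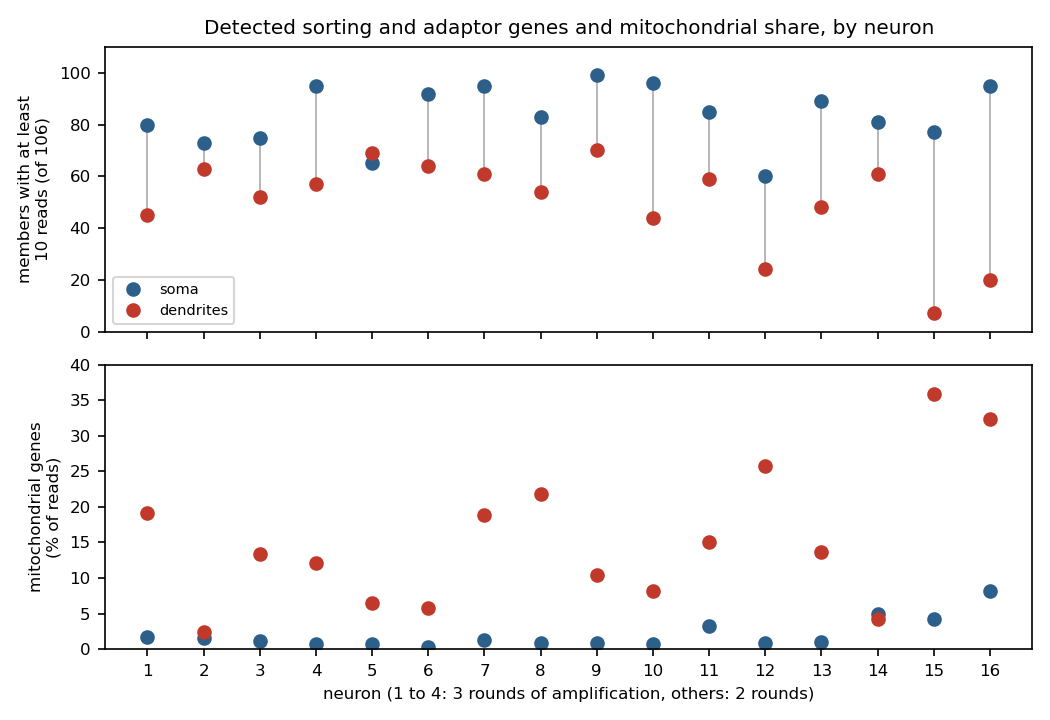
Upper panel: number of the 106 sorting and adaptor genes with at least 10 reads in the soma (blue) and dendrites (red) of each of 16 neurons. Lower panel: percent of 3′UTR table reads on mitochondrially encoded genes in the same libraries; dendrites 12, 15 and 16 have the fewest members (24, 7 and 20) and the largest mitochondrial shares.

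At the gene level, 9 members were higher in somas and 0 were higher in dendrites. The 9 were Snx15, Snx16, Snx2, Ap1m1, Snx19, Snx32, Ap4b1, Dnm3 and Snx5, and 6 of them are sorting nexins. They made up 9.28% of the 97 members tested, and 5.71% of all 10880 genes were higher in somas by the same test (edgeR's quasi-likelihood test with neuron as a block, adjusted p of at most 0.05). For genes higher in dendrites the share over all genes was 0.827%. At an unadjusted p under 0.05, 38 members were lower in dendrites and 0 were higher, beside 2901 and 386 of all genes. The median log2 fold change, dendrites over soma, was -2.05 over the members and -1.49 over all genes, and 65 members lay below the median gene and 32 above it. Without neurons 12, 15 and 16 these values were 28 members lower and 0 higher at an unadjusted p under 0.05, beside 1970 and 357 genes, with medians of -1.33 and -1.08 and with 60 members below the median gene and 37 above it. Below 0 were 93 members, so a negative value by itself was common, and the values by role are therefore given beside -1.49.

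The number of calls depended on the model and on single neurons. DESeq2 placed 60 members higher in somas and 0 higher in dendrites, in a table where it placed 46.2% of all genes higher in somas and 463 genes higher in dendrites. With the dendrites rescaled so that the median gene had a log2 fold change near 0, 1 member (Snx15) remained, against 0.846% of all genes. Without neurons 12, 15 and 16, 2 members passed (Snx15 and Cltc), against 0.901% of all genes. Leaving out 1 neuron gave 1 call without neuron 16 (1.03% of members beside 1.19% of all genes). It gave 2 without neuron 15 (2.06% beside 2.17%). There were 3 without neuron 1 (3.09% beside 2.94%) or 13 (beside 2.24%), and 4 without neuron 10 (4.12% beside 3.01%) or 12 (beside 2.71%). There were 5 without neuron 3, 4, 7 or 11 (5.15% beside 2.33%, 3.21%, 3.69% and 4.91%), and 14 without neuron 5 (14.4% beside 9.1%). Without neuron 2, 6, 8, 9 or 14 there were 12, 6, 9, 8 and 6, each a larger share than that of all genes.

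**Figure D2:**
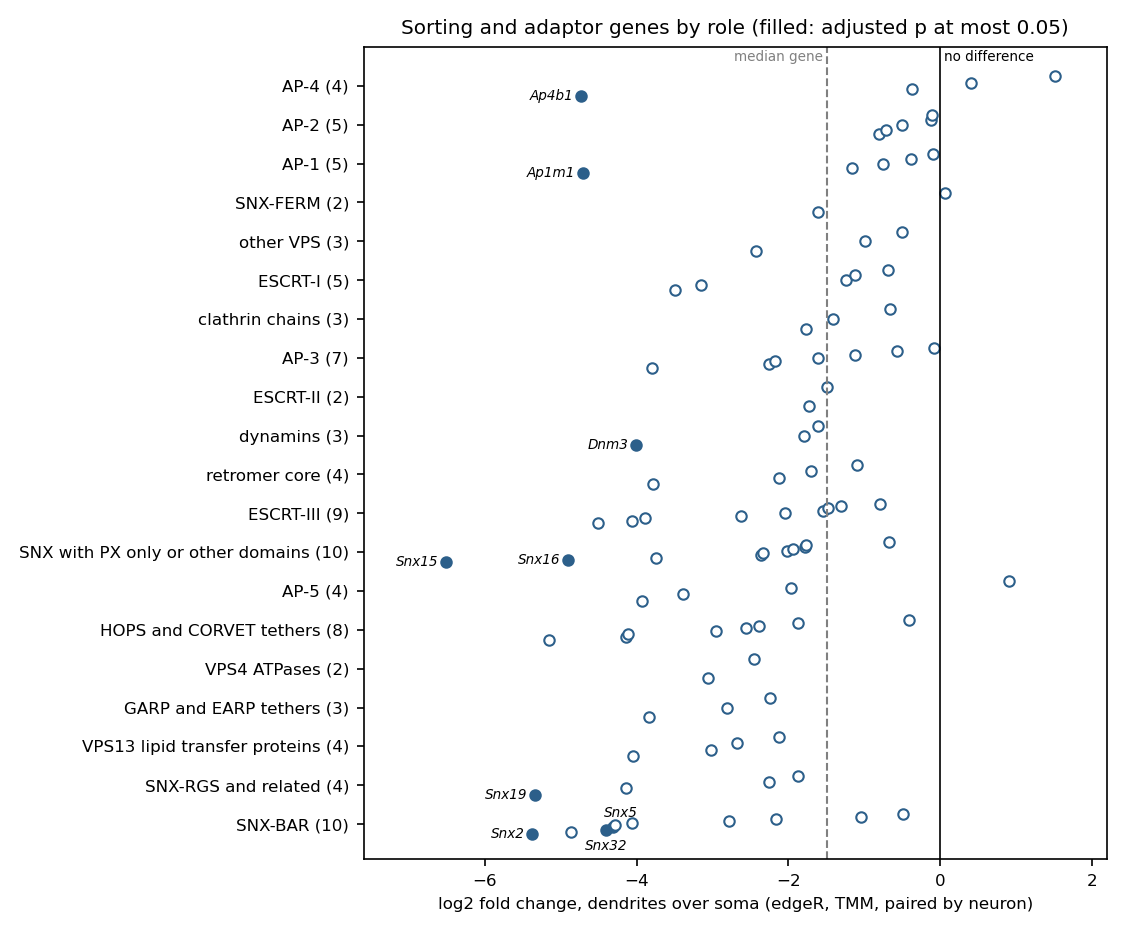
Each point is 1 of the 97 tested members, placed by its log2 fold change (dendrites over soma, horizontal axis) and its role (vertical axis, number tested in parentheses, ordered by median). Filled points passed an adjusted p of at most 0.05 in edgeR's quasi-likelihood test and are named; the dashed line is the median of all genes tested, -1.49, and the AP-2 points all lie to its right.

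Among the sorting nexins, 6 of 26 tested members (23.1%) were higher in somas, beside 5.71% of all genes, and the median log2 fold change was -2.35. Without neurons 12, 15 and 16 Snx15 was the only nexin that passed, beside 0.901% of all genes. The SNX-BAR group, whose members bend membranes into the tubules that leave endosomes, had a median of -4.18 over 10 genes, and 3 of them passed (Snx2, Snx5 and Snx32). The group of nexins with a PX domain alone or with other domains had a median of -2.18 over 10 genes, with 2 passing (Snx15 and Snx16). The 4 nexins with an RGS or related domain had a median of -3.20, and Snx19 passed.

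Snx15 carries a phosphoinositide-binding PX domain and acts in endosomal trafficking. It lies on the minus strand of chromosome 19 at 6119399 to 6128304 (mm10, GENCODE M21). Its level in somas ran from 0.217 to 265 CPM, with a median of 44.1. In dendrites it ran from 0 to 189 with a median of 0, and 9 of 16 dendrites had no read. The soma was higher in 15 neurons, and neuron 7, with 189 in its dendrites and 34.7 in its soma, was the exception. The log2 fold change was -6.51 (SE 1.40, edgeR's quasi-likelihood adjusted p = 0.0103). It passed in each of the 16 leave-one-out fits, without neurons 12, 15 and 16 (-6.15, adjusted p = 0.026), and on counts over exons (-6.18, adjusted p = 0.00906).

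Snx16, a nexin of early and late endosomes, had 25.2 to 395 CPM in somas (median 112) and 0 to 469 in dendrites (median 4.60). Every soma had reads, 5 dendrites had none, and the soma was higher in 14 neurons. The highest value of all was nevertheless in a dendrite, that of neuron 13, so the groups overlapped. Its log2 fold change was -4.90 (SE 1.31, edgeR adjusted p = 0.0215), with an adjusted p of 0.0564 without neuron 16 and 0.0865 without neurons 12, 15 and 16.

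Snx1 and Snx2 each pair with Snx5 or Snx6 in the SNX-BAR coat that carries cargo from endosomes to the Golgi and the surface. Snx2 had a median of 47.6 CPM in somas (4.20 to 107) and 0.387 in dendrites (0 to 179.6), with no read in 8 dendrites. Its log2 fold change was -5.38 (SE 1.48, edgeR adjusted p = 0.0248). Snx5 had medians of 66.9 and 1.07, and a log2 fold change of -4.31 (SE 1.37, edgeR adjusted p = 0.0467). The partners had smaller differences. Snx1 had medians of 61.2 in somas and 38.5 in dendrites, with a log2 fold change of -2.16 (SE 1.26, edgeR adjusted p = 0.228). Snx6 had medians of 62.5 and 33.9, with -1.05 (SE 1.26, edgeR adjusted p = 0.562). The difference between the partners was not tested. Snx32, a close relative of Snx5 and Snx6, had medians of 33.6 and 1.57, and 8 of 16 somas lay above the highest dendrite. Its log2 fold change was -4.41 (SE 1.34, edgeR adjusted p = 0.0394). Snx32 overlaps another protein-coding gene on the same strand, so its reads may be split between them.

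Snx19, which ties endosomes to the endoplasmic reticulum, had a median of 57.6 CPM in somas (0 to 141) and 0.773 in dendrites (0 to 245). The soma was higher in 13 of 15 neurons with reads. The log2 fold change was -5.35 (SE 1.62, edgeR adjusted p = 0.0389), and the highest value of all was in the dendrites of neuron 3.

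The 3 other members that passed were an AP-1 subunit, an AP-4 subunit and a dynamin. Ap1m1, the medium chain with which AP-1 reads tyrosine-based sorting signals, had 0 to 472 CPM in somas (median 91.5) and 0 to 244 in dendrites (median 1.87). The soma was higher in 13 of 15 neurons with reads, and the log2 fold change was -4.71 (SE 1.32, edgeR adjusted p = 0.0279). Ap4b1, the beta chain of the Golgi adaptor AP-4, was sparse, with a median of 5.90 in somas and 0 in dendrites, 11 of which had no read. Its log2 fold change of -4.73 (SE 1.46, edgeR adjusted p = 0.0422) rested on 183 reads in all dendrites and 1421 in all somas. Its highest value was in the dendrites of neuron 4, at 135, and it overlaps another protein-coding gene on the same strand.

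Dnm3, a neuronal dynamin found at postsynaptic sites, had reads in all 16 somas. Its somas ran from 56.0 to 682 CPM (median 251) and its dendrites from 0 to 316 (median 6.71). The dendrites fell into a higher and a lower range, with 7 between 56.9 and 316 and 9 between 0 and 8.6. Among the neurons with 3 rounds, the dendrites of neurons 1, 2 and 4 were in the higher range and those of neuron 3 in the lower. The soma was higher in 13 neurons, and the log2 fold change was -4.01 (SE 1.27, edgeR adjusted p = 0.0452). The other dynamins did not pass in edgeR, and in DESeq2 Dnm1 passed and Dnm2 did not. Dnm1, the main dynamin of presynaptic vesicle recycling, had medians of 216 in somas and 83.3 in dendrites, with a log2 fold change of -1.61 (SE 0.804, edgeR adjusted p = 0.166). Dnm2, the dynamin of most tissues, had medians of 6.86 and 1.57, with -1.80 (SE 1.37, edgeR adjusted p = 0.351).

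Leaving out single neurons ended most of these calls. Adjusted p-values of edgeR's test lay between 0.0513 and 0.0687 for Snx2 without neuron 1, 12, 15 or 16, and between 0.0513 and 0.0749 for Ap1m1 without neuron 1, 4, 13, 15 or 16. Dnm3 missed the threshold without neuron 3, 7, 8, 10, 11, 12, 13, 15 or 16 (0.0644 to 0.119). Snx19 missed it without any of 11 neurons (1, 4, 6, 8 and 10 to 16, 0.0528 to 0.1001), Snx32 without any of 12 (1, 3, 4, 6, 7, 9, 10, 11 and 13 to 16, 0.0504 to 0.108), Snx5 without any of 12 (1, 3, 4, 6, 7 and 10 to 16, 0.0501 to 0.120) and Ap4b1 without any of 13 (1, 3 and 6 to 16, 0.0561 to 0.106). Without neurons 12, 15 and 16, the log2 fold changes of these 7 genes stayed negative, from -4.71 for Ap4b1 to -2.65 for Dnm3.

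**Figure D3:**
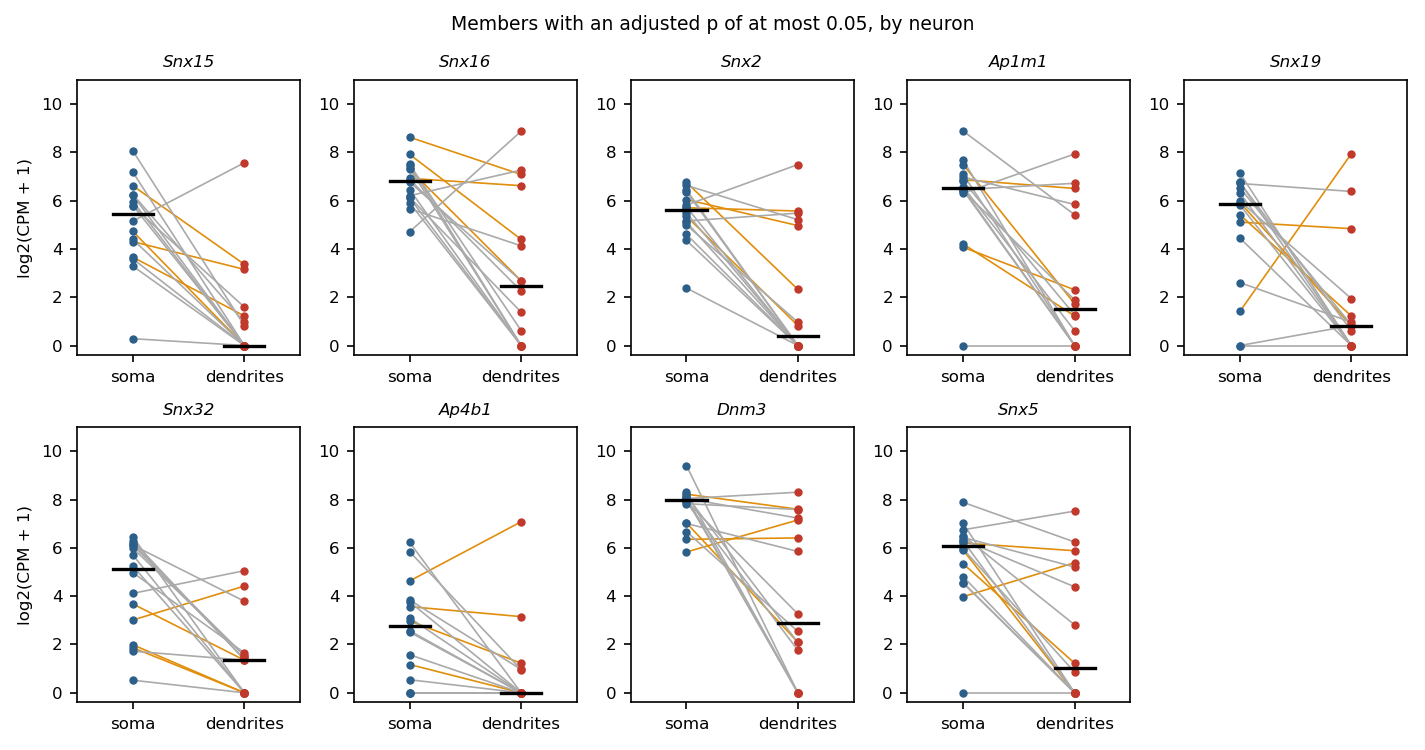
Levels of the 9 members that passed an adjusted p of at most 0.05, as log2(CPM + 1), in the soma (blue) and dendrites (red) of each of 16 neurons; lines join the compartments of 1 neuron (orange, 3 rounds of amplification; grey, 2 rounds) and black bars are medians. Each soma median lies above the dendrite median, and in every panel at least 1 dendrite library lies well above the others near 0.

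The AP-2 subunits and clathrin chains of the endocytic coat held 8 tested genes, and 0 of them passed in edgeR. At an unadjusted p under 0.05, the clathrin chains Cltc and Clta were lower in dendrites and no AP-2 subunit was. All 5 AP-2 subunits had a log2 fold change above that of the median gene, and 0 of the 5 passed. Their values ran from -0.81 to -0.11, and all 5 turned positive when the dendrites were rescaled to the median gene (0.68 to 1.38, adjusted p of 0.366 or more in edgeR). Ap2m1, the medium chain that binds cargo signals (plus strand of chromosome 16, 20535478 to 20544909), had 127 to 1115 CPM in somas (median 457) and 0 to 987 in dendrites (median 394). The soma was higher in 9 neurons and the dendrites in 7, and the log2 fold change was -0.50 (SE 0.602, edgeR adjusted p = 0.564). Ap2s1, the small chain of AP-2, was the 1 member with reads in all 16 dendrites. Its level was 5.35 to 292 in dendrites (median 56.6) and 3.70 to 157 in somas (median 76.2), with -0.11 (SE 0.819, edgeR adjusted p = 0.934). The groups overlapped over most of their range.

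Ap2a2, an alpha chain, had medians of 102 CPM in dendrites and 115 in somas, and was higher in the dendrites of 10 of 16 neurons. Its log2 fold change was -0.11 (SE 0.934), and it was positive in 7 of the 16 leave-one-out fits. Ap2a1, the other alpha chain, was read at medians of 5.05 and 8.77, with -0.71 (SE 1.07). Ap2b1, the beta chain that binds clathrin, had medians of 41.4 and 64.5, with -0.81 (SE 0.923). Adjusted p-values of these chains were 0.538 or more in edgeR, which at these standard errors does not show that the compartments were alike.

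The clathrin chains form the lattice of the coat, and 0 of 3 passed in edgeR with all neurons. In DESeq2 Clta and Cltc were higher in somas and Cltb did not pass. Clta, a light chain, had a median of 513 CPM in somas and 222 in dendrites, with a log2 fold change of -1.41 (SE 0.664, edgeR adjusted p = 0.145). Cltb, the other light chain, had medians of 279 and 242, with -0.66 (SE 0.658, edgeR adjusted p = 0.484). Cltc, the heavy chain, had 4.91 to 1486 in somas (median 861) and 0 to 908 in dendrites (median 275). The soma was higher in 15 of 16 neurons, 8 somas lay above the highest dendrite, and the log2 fold change was -1.77 (SE 0.626, edgeR adjusted p = 0.0685). Its dendrite values were 0, 0 and 5.2 in neurons 12, 15 and 16 and 143 or more in the others. Without these 3 neurons the difference was smaller, -1.20, and passed (adjusted p = 0.0395, edgeR).

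**Figure D4:**
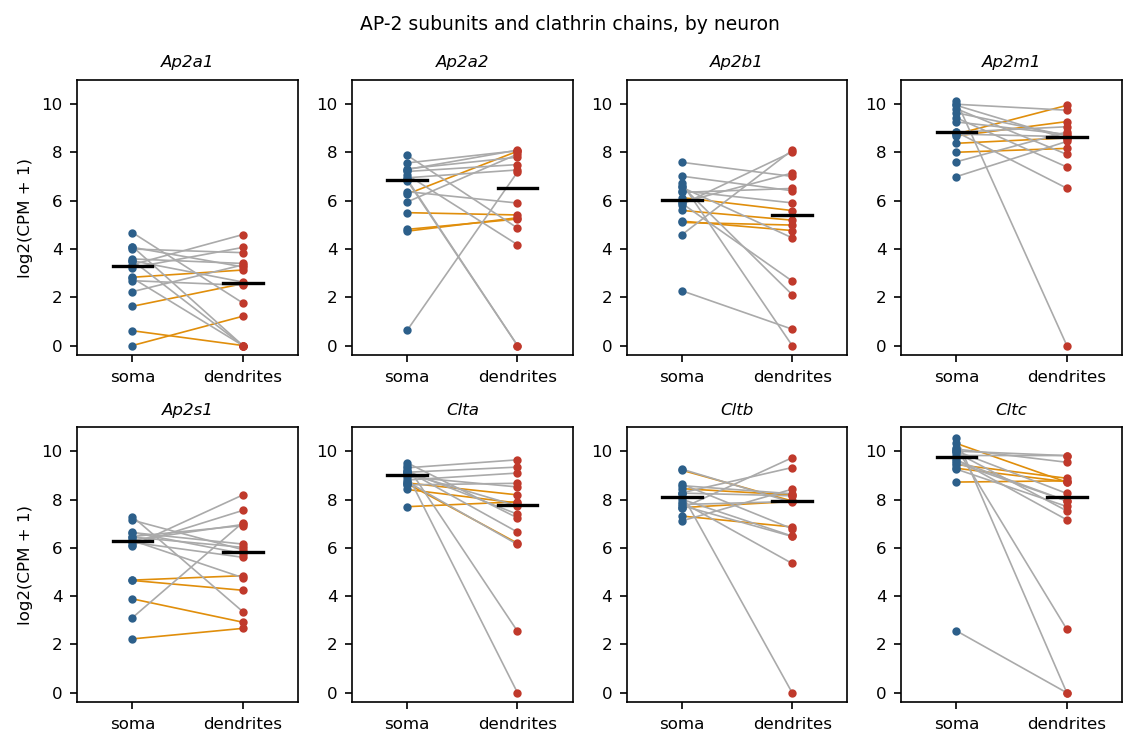
Levels of the 5 AP-2 subunits and the 3 clathrin chains, as log2(CPM + 1), in the soma (blue) and dendrites (red) of each of 16 neurons; lines join the compartments of 1 neuron (orange, 3 rounds of amplification; grey, 2 rounds) and black bars are medians. The medians lie close together for Ap2m1 (457 in somas, 394 in dendrites) and Cltb (279 and 242), and furthest apart for Cltc (861 and 275).

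The other adaptors were read in both compartments, and 2 of their 20 tested subunits passed in edgeR. AP-1, which works at the Golgi and recycling endosomes, had a median log2 fold change of -0.76 over 5 tested subunits, and Ap1m1 was the 1 that passed. AP-3, which sorts proteins to lysosomes and synaptic vesicles, had a median of -1.61 over 7 subunits, from -3.79 to -0.08, and 0 passed in edgeR. In DESeq2 Ap3b1, Ap3b2, Ap3d1 and Ap3m1 passed. Ap3b2, the beta chain of neuronal AP-3, had medians of 238 CPM in somas and 60.8 in dendrites, with -2.17 (SE 0.932, edgeR adjusted p = 0.115). Ap3m2, the neuronal medium chain, had medians of 82.7 and 74.4, with -1.12 (SE 1.00, edgeR adjusted p = 0.430). The 4 AP-5 subunits had a median of -2.68, and Ap5m1 and Ap5s1 passed in DESeq2.

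Of all members, 4 had a log2 fold change above 0, and none passed. Ap4e1, the epsilon chain of AP-4, had 0 to 102 CPM in dendrites (median 3.10) and 0 to 33.8 in somas (median 1.54). It was higher in the dendrites of 11 of 15 neurons with reads, with a log2 fold change of 1.52 (SE 1.44, edgeR adjusted p = 0.457). Ap5b1, the beta chain of AP-5, had 0.90 (SE 1.45) and Ap4m1, the medium chain of AP-4, had 0.40 (SE 1.25), both with medians below 2 in each compartment. Neuron 13 held the highest dendrite value of Ap5b1, 354, against at most 18.1 in any soma. AP-4 thus held both Ap4b1, which was higher in somas, and Ap4e1, whose positive value did not pass.

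Snx27, the nexin that links retromer to receptors with a PDZ-binding tail, was the fourth. It had 0 to 354 CPM in dendrites (median 98.7) and 8.01 to 173 in somas (median 90.8), and the dendrites were higher in 10 neurons. The log2 fold change was 0.07 (SE 0.861, edgeR adjusted p = 0.964), and its sign was negative with DESeq2 (-0.22) and in 4 of 16 leave-one-out fits.

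Retromer, the cargo-selective core that Snx27 works with, had a median log2 fold change of -1.91 over its 4 genes, and 0 passed. Vps35, the scaffold subunit, had 69.1 to 298 CPM in somas (median 219) and 0 to 407 in dendrites (median 64.8), and was higher in the soma of 14 neurons. Its log2 fold change was -2.12 (SE 0.860, edgeR adjusted p = 0.1003). Vps26a and Vps26b are alternative arrestin-like subunits. Vps26a had medians of 80.8 and 6.80, with -3.78 (SE 1.31, edgeR adjusted p = 0.065), and Vps26b had medians of 98.7 and 49.3, with -1.70 (SE 0.972, edgeR adjusted p = 0.218). Vps29, the smallest subunit, had medians of 237 and 122, with -1.09 (SE 0.832, edgeR adjusted p = 0.353). In DESeq2, Vps35, Vps26a and Vps26b passed and Vps29 did not.

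The ESCRT genes and tethers held no gene that passed in edgeR. In DESeq2 all tested ESCRT-III genes but Chmp1a passed, as did Vps4a, Vps4b, Vps36, Vps37d and all tested tethers but Vps18. Vps25, Vps28, Vps37a, Vps37b and Vps37c did not, and 46.2% of all genes were higher in somas there. ESCRT-III, the polymer that cuts vesicles off into the endosome, had a median log2 fold change of -2.05 over 9 tested genes. Chmp2b, the ESCRT-III subunit linked to frontotemporal dementia, had medians of 171 CPM in somas and 93.7 in dendrites, with -1.48 (SE 0.915, edgeR adjusted p = 0.255). Vps4a and Vps4b, the ATPases that take the polymer apart, had -2.45 (SE 1.23, adjusted p = 0.166) and -3.06 (SE 1.59, edgeR adjusted p = 0.181). ESCRT-I and ESCRT-II had medians of -1.23 over 5 genes and -1.61 over 2. The HOPS and CORVET tethers had a median of -2.76 over 8 genes, GARP and EARP -2.81 over 3, and the VPS13 lipid transfer proteins -2.85 over 4. These last groups lay below the median gene in 14 of 15 genes. The remaining 3 Vps genes include Vps72, a subunit of chromatin-remodelling complexes that shares the name only.

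Other genes of the pathway carry different names. Of 63 in the table (ESCRT-0 and ESCRT cofactors, the WASH and class III PI3K complexes, endocytic accessory proteins, GGA adaptors and endosome tethers), 58 were tested, 5 were higher in somas and 0 were higher in dendrites. This is 8.62% of the list, beside 5.71% of all genes, and the median log2 fold change was -2.15. Without neurons 12, 15 and 16, 1 of the 58 was higher in somas, Hspa8, the chaperone that strips clathrin coats, which was not among the 5. The 5 were Gga3, an adaptor of the Golgi (-5.45, SE 1.51, adjusted p = 0.026), Stam2 of ESCRT-0 (-5.24), the deubiquitinase Stambp (-5.17), Rufy1, an effector of endosomal Rab proteins (-5.06), and Ist1, an ESCRT-III cofactor (-4.05, SE 1.28, adjusted p = 0.046, edgeR). The 21 endocytic accessory genes had a median of -1.47, with 0 passing.

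The same members were read in different dendrites in different neurons. Reads were present in at least 15 of 16 dendrites for 16 of the 97 tested members, or 16.5%, and 17.1% of all genes tested reached that. Without neurons 12, 15 and 16, 42 members (43.3%) had reads in at least 12 of the 13 dendrites left, beside 33.5% of all genes. In somas, 55 members (56.7%) had reads in all 16, beside 40.7% of all genes. The dendritic read fraction is the normalized dendrite reads of a neuron over its dendrite and soma reads together, after DESeq2's size factors and where these sum to at least 10. Its median over neurons, taken over 96 members, had a median of 0.221, and over all genes with at least 5 such neurons 0.252. For Snx15 the fraction was below 0.1 in 13 of 15 neurons and 0.810 in the highest. For Ap2m1 it ran from 0 to 0.777 with a median of 0.413, and 1 of 16 neurons was below 0.1. Ap4e1 split widely, below 0.1 in 4 of 12 neurons and above 0.9 in 4.

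By neuron, the median fraction over the members ran from 0 in neurons 15 and 16 and 0.00861 in neuron 12 to 0.496 in neuron 2. The mean was 0.235 ± 0.159 (SD, n = 16), and 0.123 ± 0.118 (SD, n = 16) with raw reads.

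The difference between compartments was set beside the number of amplification rounds. The median log2 fold change of the members was -2.48 in the 12 neurons with 2 rounds (95 members tested) and -0.78 in the 4 neurons with 3 rounds (97 tested), beside -1.70 and -0.62 over all genes. Neurons 12, 15 and 16, whose dendrites stood apart, all had 2 rounds. Over the other neurons of both rounds the medians were -1.33 for members and -1.08 for all genes. The 2-round median was not computed without these neurons, so their part in the difference between rounds was not tested. In edgeR's test of the interaction of compartment with rounds, 0 of 97 members and 0 of 10880 genes passed an adjusted p of 0.05. At an unadjusted p under 0.05 there were 4 members and 288 genes. The 4 were Snx17 (-3.60 with 2 rounds and 2.76 with 3 rounds, p = 0.0154), Snx4 (-6.33 and -0.55, p = 0.0278), Vps37c (-5.58 and 1.95, p = 0.0317) and Ap4b1 (p = 0.0445), all with an edgeR adjusted p of 1. Ap4b1 was too sparse to be tested with 2 rounds alone and had -0.60 with 3 rounds. In DESeq2's test of the same interaction, 0 members passed, with 12 at an unadjusted p under 0.05. The number over all genes in that fit was not counted, so these 12 have no background to be set beside. With 2 rounds alone 6 members were higher in somas, a larger share than that of all genes. With 3 rounds alone 0 members were, beside 0.00758% of all genes. The 0 therefore shows nothing particular to the members. With 4 neurons of 3 rounds, a p that misses the threshold does not show that the rounds gave the same difference.

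Alternative 3′ ends were compared through the distal fraction, the share of reads on the more distal of the 2 ends of a gene with most reads. Each end covers the last 500 nt, and 73 members had several ends and 33 had 1. In 44 members at least 5 neurons had 10 or more reads on these ends in both compartments. By the exact signed-rank permutation test, two-sided, 6 of the 44 members had an unadjusted p under 0.1, or 13.6%, and 8.44% of the 3508 genes tested did. After adjustment over the 3508 genes 0 members and 0 genes passed at 0.05, and the smallest adjusted p was 0.818 among members and 0.285 among all genes. The 6 were Ap2m1, Snx27, Vps45, Ap2a2, Ap3b2 and Chmp3. Leaving out neuron 2 or neuron 7 left 3 members with a p under 0.1. Of the 6, Snx27, Chmp3 and Vps45 rose above 0.1 without neuron 5, and Ap2a2, Snx27 and Vps45 without neuron 11. Without neurons 12, 15 and 16, 5 of 43 members had such a p (all but Snx27), beside 8.54% of 3395 genes.

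Vps45, a regulator of SNARE proteins in endosomal fusion, had the largest mean difference of these 6. The distal fraction in dendrites was 1.00 in 5 of 6 neurons and 0.933 in neuron 7, while in somas it ran from 0.376 to 1.00. The means were 0.989 ± 0.0272 and 0.719 ± 0.269 (SD, n = 6), 5 neurons were higher in dendrites and none lower, and the exact p was 0.0625. The dendrite values rest on 30 to 263 reads. Neuron 8 was tied and does not count in the test, so 0.0625 is the smallest exact p it could give. In neuron 9 the fractions were 1.00 and 0.999. Without neuron 5, 7, 9, 11 or 14 the exact p was 0.125, again the smallest possible. Its rise above 0.1 was thus fixed by the number of neurons and does not bear on stability. For Snx27 the mean was 0.857 ± 0.266 in dendrites and 0.787 ± 0.183 in somas (SD, n = 14), higher in the dendrites of 10 neurons (permutation p = 0.0906). It was lower in the dendrites of 4 neurons. In neurons 3, 4 and 15 the gap was small (0.988 against 1.00, 0.695 against 0.758, and 0.982 against 1.00), and in neuron 10 it was wide, with 0 of 195 dendrite reads on the distal end and a fraction of 0.614 in the soma. The mean difference of 0.0705 became 0.123 without neuron 10, 0.0431 without neuron 6 and 0.0453 without neuron 8, and the permutation p rose to between 0.127 and 0.146 without neuron 2, 5, 6, 7, 8, 9, 11, 14 or 16. Ap2m1 used its distal end almost alone in both compartments, with 0.997 ± 0.00365 in dendrites and 0.980 ± 0.0404 in somas (SD, n = 15, permutation p = 0.0134). Its soma values were 0.946 or more apart from neuron 12, at 0.842, and without that neuron the mean difference of 0.0174 became 0.00799 (permutation p = 0.0266).

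For the other 3 the distal fraction was lower in dendrites. Ap2a2 had 0.9001 ± 0.197 in dendrites and 0.994 ± 0.0191 in somas (SD, n = 12, permutation p = 0.0547). Ap3b2 had 0.854 ± 0.231 and 0.972 ± 0.0908 (SD, n = 12, permutation p = 0.0469), with dendrites at 0.312 in neuron 1 and 0.526 in neuron 14, where the soma was at 1.00. Chmp3, an ESCRT-III subunit, had 0.705 ± 0.404 and 0.891 ± 0.256 (SD, n = 8, exact permutation p = 0.0938). In each of these a few dendrites were low and the others were close to their somas. Without neuron 7 the difference of Ap2a2 went from -0.0938 to -0.0473, and its permutation p was 0.109 without neuron 2, 3, 7, 11 or 13. Without neuron 1 that of Ap3b2 went from -0.118 to -0.0666. Without neuron 3 that of Chmp3 went from -0.185 to -0.0839, and its exact permutation p was 0.125 without neuron 5 and 0.188 without neuron 2, 3, 6 or 8.

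**Figure D5:**
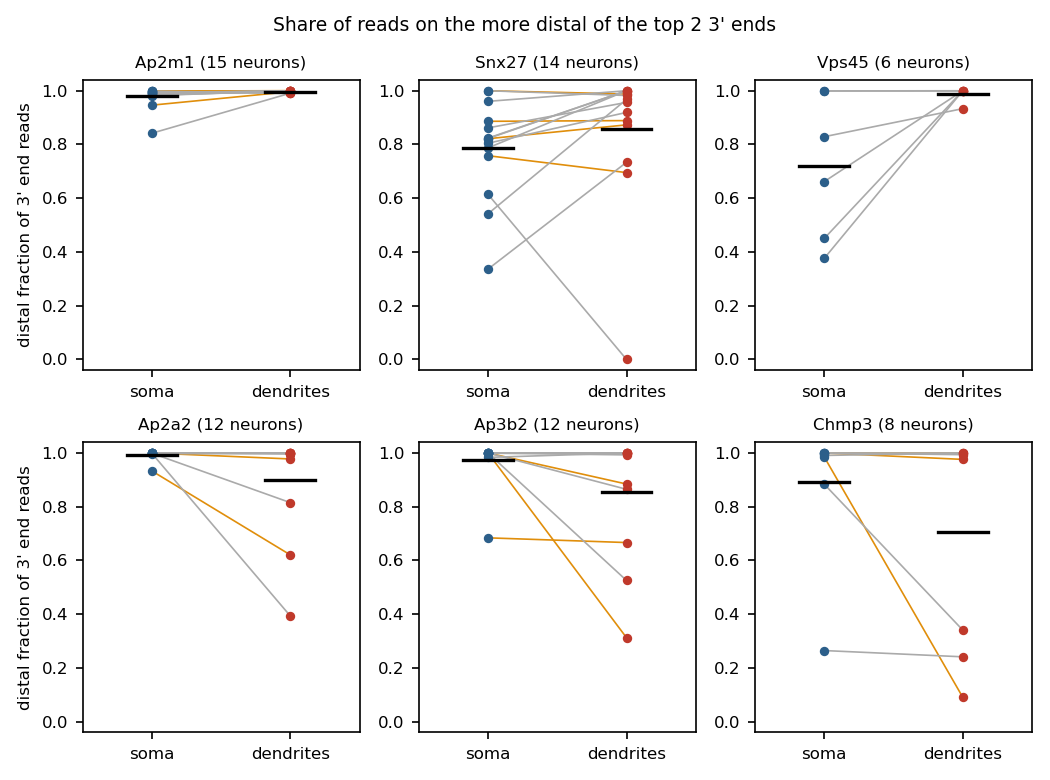
Share of a gene's reads on the more distal of its top 2 3′ ends (vertical axis, 0 to 1) in the soma (blue) and dendrites (red) of each neuron with at least 10 reads in both; lines join the compartments of 1 neuron (orange, 3 rounds of amplification; grey, 2 rounds) and black bars are means. The upper genes were higher in dendrites (Vps45, 0.989 against 0.719) and the lower genes lower (Chmp3, 0.705 against 0.891).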

How the data were processed

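Soma and dendrite RNA of 16 neurons was sequenced in 32 libraries. The authors aligned trimmed reads to mm10 with STAR 2.4.0 and counted uniquely mapped reads by strand with VERSE. The deposited counts are whole numbers without normalization or molecular identifiers, on the union of 3′UTRs of each gene, on 74532 separate 3′ ends and on exons. Genes read in at least 16 libraries (1 read or more) were compared with edgeR 4.0.16 in R 4.3.3 (TMM, robust quasi-likelihood fit, neuron as a block), and p-values were adjusted over all 10880 genes by the Benjamini-Hochberg method. DESeq2 1.42.0 was an alternative. Tables were made with Python 3.11.15, pandas 2.3.3 and SciPy 1.17.1. The edgeR step was tested on simulated data. Ends are numbered from the most distal, which was checked against GENCODE annotation.

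Both compartments came from the same neuron. Deviations from the compartment means correlated at 0.0887 ± 0.0772 (SD, n = 16) within neurons and -0.00559 ± 0.0526 (SD, n = 240) between neurons. No pair of libraries held identical counts. Depth differed between libraries, and precision was taken from the spread between neurons.

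Members, lists and tests were chosen with earlier results of these data known. Genes named in the text were those called, up to 5 with the smallest p in each direction, a fixed set (AP-2, clathrin, dynamins, retromer, Snx27, Snx1, Snx2, Snx5, Snx6, Chmp2b, Vps4a, Vps4b, Ap3b2 and Ap3m2), and those with a distal fraction p under 0.1. Other members are given by counts and ranges. Vps72, Snx17, Snx4, Vps37c and the genes outside the member list were named after their values were seen, for their role or small count. So were the members named only for their result in DESeq2. Sequences were not used here.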

Additional observations from a re-analysis of the deposited data

How the results depend on the processing

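Of 1085 alternative values of single genes, 855 kept their direction and their side of the threshold, 159 no longer passed, 18 passed only there and 53 changed sign. Of 77 alternative values of counts and means, 53 stayed within 1.5 times a count or 1 SD of a mean. The 9 calls in somas (9.28% of members, beside 5.71% of all genes) became 60 with DESeq2 (61.9% beside 46.2%). They became 14 with DESeq2's size factors in edgeR (14.4% beside 9.26%). With at least 10 reads in 16 samples there were 4 (80 members tested, 5% beside 2.55%). Equal reads per pair gave 3 (3.1% beside 2.7%), and no filter gave 2 (1.89% beside 0.460%). Exon counts gave 2, where the share of members, 2.06%, was below the 2.62% of all genes. The median gene near 0 gave 1 (1.03% beside 0.846%). The calls became 0 without the replicate block (0.708% of all genes), and 0 with the 4 neurons of 3 rounds (0.00758% of all genes). They became 2 without neurons 12, 15 and 16 (2.06% beside 0.901%), an alternative chosen after seeing the data. When 1 neuron was left out they became 1 to 14, with the shares compared above. The cause was not tested, except that fewer samples or members entered some of these fits. The 0 members higher in dendrites stayed 0 in all of them. Over all genes, 90 were higher in dendrites in the main fit, 463 with DESeq2, 548 with the median gene near 0 and 3 with 3 rounds only. The 6 members with a distal fraction p under 0.1 became 2 with 2 rounds only and 3 to 6 with 1 neuron left out.

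Some log2 fold changes of members that did not pass changed sign. With the median gene near 0 they were 0.76 for Ap2a1, 1.38 for Ap2a2, 0.68 for Ap2b1, 0.99 for Ap2m1, 1.38 for Ap2s1, 0.37 for Ap3m2, 0.013 for Chmp2b, 0.081 for Clta, 0.84 for Cltb, 0.44 for Snx6 and 0.40 for Vps29. With 3 rounds only they were 0.93 for Ap2a1, 0.79 for Ap2a2, 0.66 for Ap2m1, -0.63 for Ap4m1, -0.30 for Ap4e1, -0.63 for Ap5b1, 0.24 for Chmp2b, 1.30 for Dnm2 and 1.01 for Vps45. Without the replicate block they were 0.36 for Dnm2, 0.38 for Vps4b, 0.16 for Ap2s1, 0.046 for Ap2b1 and 0.22 for Ap2a2. Ap2a2 had 0.21 with 10 reads in 16 samples, 0.30 with equal reads, 0.10 on exons and 0.049 without neurons 12, 15 and 16, and Ap2s1 had 0.22, 0.35 and 0.43 in the first 3 of these. Ap4m1 had -0.37 on exons. Snx27 had -0.22 with DESeq2, -0.22 with size factors, -0.013 without a filter and -0.012 with 2 rounds only. With 1 neuron left out, Ap2a2 ran from -0.29 to 0.40, Ap2s1 from -0.23 to 0.35, Ap4m1 from -0.0072 to 1.01 and Snx27 from -0.081 to 0.59. A difference of about 1 on the log2 scale was within the standard error of many members. Larger differences did not always pass either, such as that of Vps26a (-3.78, SE 1.31, edgeR adjusted p = 0.065). The smallest difference detectable with these neurons was not computed.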
